A study of Mus musculus with 2 samples.

Results

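The mRNAs of 10 genes of the TNF, toll-like receptor and NF-kB pathway were followed across the cell types of colitis-associated colon cancers (CACs) of mice. These were *Tnf*, *Tnfrsf1a*, *Tnfrsf1b*, *Tlr2*, *Tlr4*, *Cd14*, *Myd88*, *Nfkb1*, *Nfkbia* and *Tnfaip3*, 10 of the 32291 genes in the expression table, chosen by name. Earlier results of these data were known when they were chosen. Single-cell RNA sequencing had been performed on CACs of Mir34a_F/F mice, which carry floxed *Mir34a* alleles, and of Mir34a_Mye_KO mice, in which LysM-Cre is meant to delete these alleles in cells of the myeloid lineage. LysM-Cre is driven by the *Lyz2* locus and therefore acts in macrophages, monocytes and neutrophils, whereas epithelial cells and lymphocytes keep the floxed alleles. All mice were of C57Bl/6 background and received 3 periods of DSS in the drinking water (2.5%, 2.5% and 2%), with the end point at day 110. AOM (10 mg/kg) was injected at 6 to 10 weeks of age, before the first and again before the second period of DSS. Tumors (6 to 8, from 3 mice) were combined into 1 library per genotype. The deposited annotation used here gives each cell a library but no mouse, so genotypes were not tested against each other and no p-value is given. All intervals are 95% intervals that cover the error of counting molecules only.

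TNF is a cytokine that acts through the receptors encoded by *Tnfrsf1a* (TNFR1, found on most cell types) and *Tnfrsf1b* (TNFR2, mainly on leukocytes and endothelium). Toll-like receptors sense microbial products: TLR2 binds bacterial lipoproteins, and TLR4, helped by the lipopolysaccharide co-receptor CD14, binds lipopolysaccharide. Both pass the signal on through the adaptor MyD88. These routes converge on NF-kB, whose p50 subunit is made from the precursor encoded by *Nfkb1*. NF-kB then induces its own inhibitors, IkB-alpha (*Nfkbia*) and the ubiquitin-editing enzyme A20 (*Tnfaip3*), and also *Tnf* itself. In the inflamed colon, TNF of macrophages is a target of therapy, and epithelial NF-kB activity is a known driver of tumor formation after AOM and DSS.

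The libraries held 20312 cells for the label Mir34a_F/F and 18571 cells for the label Mir34a_Mye_KO, with medians of 4787 and 7716 UMIs (unique molecular identifiers, each counting 1 captured mRNA molecule) per cell. In 11 of 11 cell types the cells of the library labelled Mir34a_Mye_KO were deeper, by 1.11-fold in endothelial cells to 5.69-fold in B cells, and their median mitochondrial share was higher. A check of the labels gave values in both directions. In macrophages, a feature named mir34apri had 133 UMIs in the library labelled Mir34a_F/F and 462 in the library labelled Mir34a_Mye_KO, with a log2 ratio of 0.62 (0.21 to 1.04), whereas the ratio was 0.06 in neutrophils and 0.01 in T cells on 9 to 17 UMIs. Whether this feature lies in the deleted part is not given in the sources used here. *Lyz2*, which a Cre knock-in at its locus interrupts, had 3892 and 1379 UMIs and was thus lower in the library labelled Mir34a_Mye_KO, as that label would have it. The feature crenlslyz2 had 451 and 172 UMIs and crenls had 0 in both, so UMIs of Cre and of *Lyz2* cannot be told apart in crenlslyz2. Macrophages were 2208 of 20312 and 2601 of 18571 cells. Since the checks differ, the libraries are called by their labels. They shared 96 barcode sequences. The deposited cell types were led by their own markers, except that 4 and 3 of 5 basophil markers were highest in basophils. Cell by cell, the share of cells in which the markers of the own type scored highest was lowest in basophils (59.1%) and epithelial cells (59.4%), followed by mast cells (69.7%), T cells (72.4%), dendritic cells (73.5%) and macrophages (74.1%), and ranged from 83.0% to 100% in the other 5 cell types. Where 2 values are given below, the first belongs to the library labelled Mir34a_F/F and the second to the library labelled Mir34a_Mye_KO.

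The letters that a miR-34a seed or an NF-kB dimer could read were looked up in the 10 genes, since the genotypes differ in *Mir34a* and 3 of the genes act in or on NF-kB itself. The mature miRNA is shown with its seed, bases 2 to 8, in capitals (RefSeq, GRCm38.p6, chr4:150068473-150068494, plus strand).
mmu-miR-34a-5p: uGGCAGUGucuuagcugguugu
In the longest annotated 3′ UTR of each gene, the only one searched, none of the 10 genes held the letters CACTGCC that pair with all 7 seed bases, whereas 14.3% of 21020 genes with a 3′ UTR in the GENCODE vM21 annotation did by the same search. The 3′ UTRs of the 10 genes ranged from 148 bases (*Tlr2*) to 2324 bases (*Tnfrsf1b*), and among genes of like 3′ UTR length the share ranged from 1.58% for *Tlr2* to 23.4% for *Tnfrsf1b*. The shorter match ACTGCC, which pairs with bases 2 to 7, was present once each in 4 of 10 genes and in 29.9% of all genes. In *Tnfrsf1b* and *Tnfaip3* an A follows the match, so the base before the seed could pair as well. The share of all genes with this longer form was not counted. These 4 sites are given with the match in capitals, on the strand of the gene (GRCm38).
*Tnfrsf1a*, chr6:125362157-125362186: cagccgccgaggACTGCCtgagccagccac
*Tnfrsf1b*, chr4:145215620-145215649: gagtggtcaaaaACTGCCatggtgttttat
*Myd88*, chr9:119336766-119336795: tgagcaactaggACTGCCtttcctcccagc
*Tnfaip3*, chr10:19002673-19002702: aaggagcctcaaACTGCCattcacagtggt

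Promoters from 250 bases before to 50 bases after the start were at hand for *Tnf*, *Tnfrsf1a*, *Tnfrsf1b*, *Tlr2*, *Myd88*, *Nfkbia* and *Tnfaip3* (RefSeq, GRCm38.p6). The kappa B consensus was searched on both strands. It was found in 3 of these 7 genes, *Tlr2*, *Nfkbia* and *Tnfaip3*, and in 8.46% of all 32851 promoters. The sites are shown with the match in capitals. For *Tlr2*, the first site also holds a second match that begins 1 base earlier and overlaps it.
*Tlr2*, chr3:83841761-83841790, minus strand: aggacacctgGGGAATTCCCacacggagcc
*Tlr2*, chr3:83841597-83841626, minus strand: ccctgacctgGGGACATCCCcttccctcac
*Nfkbia*, chr12:55492657-55492686, minus strand: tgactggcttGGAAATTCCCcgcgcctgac
*Tnfaip3*, chr10:19015516-19015545, minus strand: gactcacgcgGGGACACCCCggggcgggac
*Tnfaip3*, chr10:19015403-19015432, minus strand: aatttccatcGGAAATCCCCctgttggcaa
Such matches describe the letters only. Binding of NF-kB was not measured.

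Of the 10 mRNAs, 6, namely *Tnfrsf1a*, *Tnfrsf1b*, *Tlr2*, *Tlr4*, *Cd14* and *Myd88*, had their highest level in neutrophils, macrophages or dendritic cells in both libraries. The level of an mRNA is the mean over cells of its UMIs per 10000 UMIs of the cell. Among 7050 genes with a level of at least 0.5, 19.8% peaked in these 3 cell types in both libraries, and of 60 other genes of the pathway 23 did. The receptors and the adaptor thus peaked in phagocytes, although the interval of the highest cell type overlapped that of the next for *Tnfrsf1a* and *Myd88* in both libraries and for *Tnfrsf1b* in the library labelled Mir34a_F/F. The members further down the pathway, *Nfkb1* and its inhibitors *Nfkbia* and *Tnfaip3*, had their highest levels in basophils or T cells, and *Tnf* in macrophages or basophils.

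**Figure D1:**
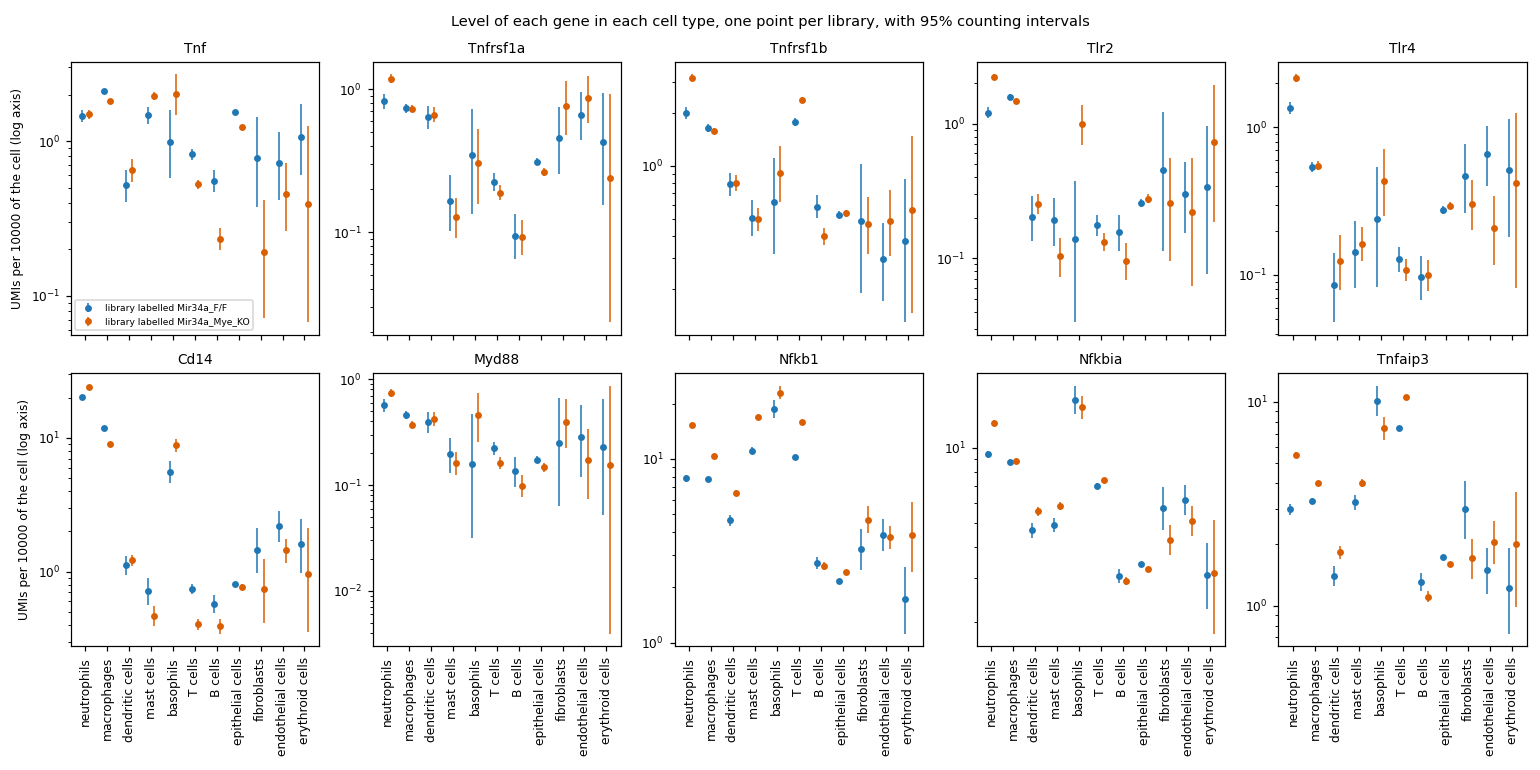
Level of each of the 10 mRNAs (UMIs per 10000 UMIs of the cell, log axis) in the 11 cell types, with 1 point per library (blue, labelled Mir34a_F/F; orange, labelled Mir34a_Mye_KO) and bars for 95% counting intervals. *Cd14* stands at 20.2 and 24.1 in neutrophils and below 1 in T and B cells, whereas *Nfkbia* is above 2.9 in every cell type.

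*Tnf* was not restricted to phagocytes. In macrophages its level was 2.09 (2.01 to 2.18) and 1.81 (1.75 to 1.88), in mast cells 1.47 (1.30 to 1.66) and 1.95 (1.84 to 2.07), and in neutrophils 1.45 (1.32 to 1.60) and 1.49 (1.39 to 1.58). Epithelial cells, which include the tumor cells of these CACs, were close behind at 1.53 (1.49 to 1.57) and 1.24 (1.20 to 1.27). In the library labelled Mir34a_F/F the levels of epithelial cells, mast cells and neutrophils did not differ beyond their intervals. Because epithelial cells were the most numerous, they held 65.3% and 47.6% of all *Tnf* UMIs, and macrophages held 20.03% and 29.8%.

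To compare cells of different depth, each cell was thinned to 1000 UMIs. A *Tnf* UMI was then left in 16.1% and 11.98% of macrophages, in 12.9% (12.3 to 13.5) and 10.9% (10.3 to 11.5) of epithelial cells, and in 5.26% (3.92 to 6.90) and 2.28% (1.42 to 3.46) of B cells. Free RNA in the droplets gives UMIs to cells that do not make an mRNA. In erythroid cells, which are not expected to make *Tnf*, the share was 9.30% (4.10 to 17.5) of 86 cells and 6.67% (0.818 to 22.1) of 30 cells, and the intervals of these few cells hold the epithelial shares. In B cells at the same number of UMIs, the shares were below those of epithelial cells in both libraries, beyond counting error. Thinning does not equalize the part of free RNA, however. The summed level of 5 epithelial markers was 22.9 and 10.2 in B cells and 44.2 and 36.5 in erythroid cells. The part of free RNA in the *Tnf* shares was not tested. In the 7907 and 4846 epithelial cells whose epithelial markers scored highest, the level of *Tnf* was 1.70 and 1.503. *Tnf* was unevenly spread over macrophages: the 5% of macrophages with most *Tnf* UMIs held 39.7% and 44.5% of them, with up to 59 and 141 UMIs in a cell, whereas the 5% with most *Tnfrsf1a* UMIs held 27.2% and 24.4%. This order was not general, since in T cells the values were 43.5% and 42.8% for *Tnf* and 64.7% and 47.7% for *Tnfrsf1a*, and in epithelial cells 33.5% and 40.3% for *Tnf* and 44.1% and 44.2% for *Tnfrsf1a*. Such shares also rise when an mRNA has few UMIs. *Tlr4*, with 389 UMIs in T cells of both libraries, reached 100% in those of the library labelled Mir34a_F/F. The T cell and epithelial values therefore do not measure unevenness alone.

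The receptor *Tnfrsf1a* had levels of 0.83 (0.73 to 0.93) and 1.18 (1.09 to 1.27) in neutrophils, 0.73 and 0.73 in macrophages and 0.63 and 0.66 in dendritic cells. It was also present in endothelial cells at 0.66 and 0.86. T cells (0.23 and 0.19), mast cells (0.16 and 0.13) and B cells (0.09 and 0.09) had least. The second receptor, *Tnfrsf1b*, differed from *Tnfrsf1a* in its place among cell types, being higher in the order in T cells and lower in endothelial cells (0.29 and 0.49). Its levels were 1.77 (1.68 to 1.86) and 2.36 (2.29 to 2.44) in T cells, next to 1.99 (1.84 to 2.15) and 3.16 (3.03 to 3.30) in neutrophils and 1.64 and 1.57 in macrophages. T cells therefore held 20.1% and 26.5% of the *Tnfrsf1b* UMIs of a library, compared with 5.42% and 5.72% of the *Tnfrsf1a* UMIs.

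*Cd14* was highest in neutrophils and macrophages in both libraries, followed by basophils, whose interval overlapped that of macrophages in the library labelled Mir34a_Mye_KO. Its level was 20.2 (19.7 to 20.6) and 24.1 (23.8 to 24.5) in neutrophils, 11.9 (11.7 to 12.1) and 9.07 (8.95 to 9.19) in macrophages, and 5.58 (4.58 to 6.73) and 8.81 (7.84 to 9.86) in basophils. In the other 8 cell types it ranged from 0.39 in B cells to 2.20 in endothelial cells. After thinning, 69.9% and 72.0% of neutrophils and 52.9% and 43.1% of macrophages had a *Cd14* UMI, against 6.56% and 3.56% of T cells, which are not expected to make it. The level of *Cd14* divided by that of *Tnf* was 13.9 and 16.2 in neutrophils, 5.67 and 5.00 in macrophages, 0.91 and 0.77 in T cells, and 0.53 and 0.63 in epithelial cells. This quotient thus differed between cell types in both libraries.

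The toll-like receptors had lower levels than *Cd14* in the same cell types. *Tlr2* levels were 1.20 (1.09 to 1.32) and 2.21 (2.10 to 2.32) in neutrophils and 1.58 (1.51 to 1.65) and 1.48 (1.43 to 1.53) in macrophages. The order of these 2 cell types was therefore opposite in the 2 libraries, and in each library their intervals did not overlap. *Tlr4* was highest in neutrophils in both libraries, with levels of 1.36 (1.24 to 1.49) and 2.17 (2.05 to 2.29), and macrophages had 0.54 and 0.55. The adaptor *Myd88* was low throughout: its levels were 0.57 and 0.75 in neutrophils, 0.46 and 0.37 in macrophages, 0.39 and 0.42 in dendritic cells and 0.17 and 0.15 in epithelial cells. *Myd88* had only 1 to 5 UMIs in erythroid cells and 4 to 18 in basophils, so its level there was poorly determined.

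*Nfkb1* was highest in basophils (18.7 and 22.9), followed by mast cells (11.1 and 16.9) and T cells (10.2 and 15.9). Neutrophils had 7.82 (7.52 to 8.13) and 15.3 (15.0 to 15.6), and macrophages 7.81 (7.62 to 7.99) and 10.3 (10.2 to 10.5). In the library labelled Mir34a_F/F neutrophils and macrophages did not differ beyond their intervals, whereas in the library labelled Mir34a_Mye_KO neutrophils were above macrophages. Epithelial cells were low, with 2.17 and 2.41. The levels of the inhibitor *Nfkbia* ran from 3.06 and 2.93 in B cells through 8.77 and 8.86 in macrophages and 9.39 and 12.6 in neutrophils to 15.6 and 14.5 in basophils. *Tnfaip3*, in contrast, was high in T cells (7.48 and 10.6), in which A20 limits NF-kB downstream of the antigen receptor, and in basophils (10.2 and 7.42), and it was 1.73 and 1.60 in epithelial cells.

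Basophils were few (48 and 40 cells), and their label was mixed. They carried a summed level of 5 neutrophil markers of 460 and 396, compared with 1586 and 1038 in neutrophils, and 5 mast cell markers summed to 39.3 and 177. In the 31 and 21 cells in which basophil markers scored highest, *Nfkb1* was 21.1 and 23.6, *Nfkbia* 20.2 and 18.3 and *Tnfaip3* 13.5 and 10.3, so these 3 mRNAs were high there as well. *Cd14* was 1.41 and 1.13 in the same cells, compared with 5.58 and 8.81 in all cells with the basophil label. *Tlr2* rested on 4 and 53 UMIs in all basophils and on 2 and 3 UMIs in the cells with highest basophil markers. The part of the other cells in the basophil values of *Cd14* and *Tlr2* was not tested.

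Libraries were compared as a log2 ratio, namely of the level in the library labelled Mir34a_Mye_KO over that in the library labelled Mir34a_F/F. Of 110 possible pairs of mRNA and cell type, 94 had at least 50 UMIs over both libraries. At least 1.5-fold higher in the library labelled Mir34a_Mye_KO were 13 of the 94 pairs (13.8%), compared with 5.43% of all 101784 pairs of gene and cell type, and 12 pairs (12.8%) were at least 1.5-fold lower, compared with 15.4%. Of the 13 higher pairs, 5 were in neutrophils. The split of 13 higher and 12 lower pairs depended on the scaling, as did the share of all pairs. It was 18 and 7 when immunoglobulin, mitochondrial and ribosomal RNA-like genes were left out of the totals (8.56% and 9.47% of all pairs). Relative to the median of all genes, which was -0.15 over all pairs, it was 18 and 6 (8.43% and 9.39% of all pairs).

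In neutrophils, 10 of 10 members had a ratio above 0, compared with 35.9% of genes. At least 1.5-fold higher in the library labelled Mir34a_Mye_KO were 5 of 10, compared with 5.86% of 11088 genes. None was 1.5-fold lower, compared with 16.4% of genes. The median log2 ratio was 0.59 for the members and -0.16 for all genes. These 5 mRNAs were *Nfkb1* with 0.97 (0.91 to 1.03), *Tlr2* with 0.88 (0.73 to 1.03), *Tnfaip3* with 0.88 (0.78 to 0.98), *Tnfrsf1b* with 0.67 (0.54 to 0.80) and *Tlr4* with 0.67 (0.51 to 0.82). They include both toll-like receptors, the receptor TNFR2, the NF-kB precursor and A20. *Tnfrsf1a* (0.51), *Nfkbia* (0.42), *Myd88* (0.40) and *Cd14* (0.26) had smaller ratios with intervals above 0. The ligand *Tnf* had 0.03 (-0.13 to 0.20), and its counting interval held 0.

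**Figure D2:**
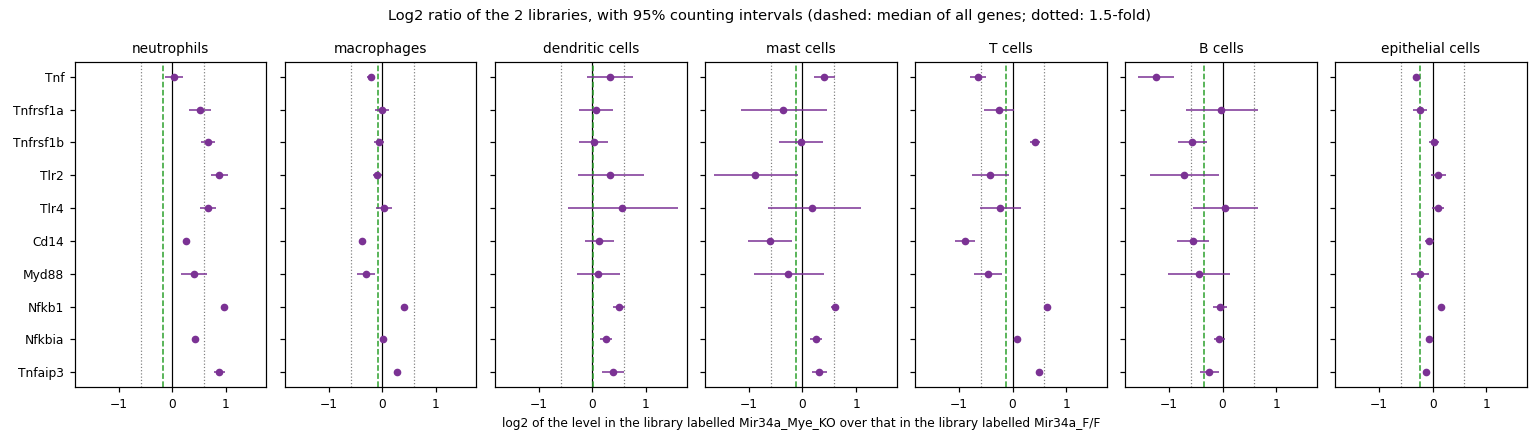
Log2 ratio of the level in the library labelled Mir34a_Mye_KO over that in the library labelled Mir34a_F/F for the 10 mRNAs in 7 cell types (points), with 95% counting intervals (bars), the median of all genes (dashed green) and 1.5-fold limits (dotted). All 10 points of neutrophils lie above 0 and above the median of all genes, whereas the 10 points of macrophages lie within 1.5-fold.

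Neutrophils of the library labelled Mir34a_Mye_KO also differed in other measures. They had a median of 7330 UMIs compared with 4107 and a median mitochondrial share of 2.83% compared with 1.26%. Levels of *S100a8* and *S100a9*, calprotectin subunits that take a large part of the mRNA of neutrophils, were 610.3 and 866 in the library labelled Mir34a_F/F and 426 and 529 in the library labelled Mir34a_Mye_KO. Summed levels of markers of other cell types in neutrophils also moved, from 28.6 to 17.8 for 5 epithelial markers, from 2.14 to 0.31 for 5 erythroid markers and from 0.17 to 0.44 for 5 B cell markers, while 6 macrophage markers stood at 3.34 and 3.69, and their part in the ratios was not tested. With *S100a8* and *S100a9* left out of the totals, 4 of 10 members were at least 1.5-fold higher (4.18% of genes) and *Tlr4* was at 0.57. In neutrophils with 5000 to 15000 UMIs (360 and 682 cells), 7 of 10 were at least 1.5-fold higher (9.32% of genes), with *Tnfrsf1a* at 0.99 and *Tnf* at 0.36. *Nfkb1*, *Tlr2* and *Tnfaip3* reached 1.5-fold in 8 of 8 alternatives, with lowest values of 0.88, 0.79 and 0.80, whereas *Tnfrsf1b* and *Tlr4* did so in 7 of 8, with lowest values of 0.58 and 0.57. *Tnf* ranged from -0.05 to 0.36. When neutrophils below 500 mRNAs or with 10% or more mitochondrial UMIs were left out, 5 of 10 were at least 1.5-fold higher (6.93% of genes), and with immunoglobulin, mitochondrial and ribosomal RNA-like genes left out of the totals 6 of 10 were (8.29% of genes).

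In macrophages, none of the 10 members reached 1.5-fold in either direction, compared with 3.93% of 14412 genes that were higher and 9.46% that were lower. The median log2 ratio of the members was -0.03, and that of all genes -0.08. The largest ratios were those of *Nfkb1* with 0.40 (0.36 to 0.44) and *Tnfaip3* with 0.28 (0.22 to 0.34). Lower in the library labelled Mir34a_Mye_KO were *Cd14* with -0.39 (-0.42 to -0.36), *Myd88* with -0.30 (-0.47 to -0.13) and *Tnf* with -0.21 (-0.28 to -0.13). The *Cd14* value depended on how cells were weighted: when UMIs were summed over cells, so that deep cells count more, it was 0.01, that of *Tnf* was 0.06 and that of *Nfkb1* 0.71. In macrophages with 5000 to 15000 UMIs *Nfkb1* was at 0.84, and the median of the members was 0.30. *Nfkb1* was therefore at least 1.5-fold higher in 2 of 8 alternatives, and no other member was.

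A comparison of neutrophils and macrophages by gene is shown by the ratios of *Tlr2* and *Tlr4*. *Tlr2* had 0.88 in neutrophils and -0.09 (-0.17 to -0.01) in macrophages, and *Tlr4* had 0.67 and 0.03 (-0.13 to 0.19). In cells with 5000 to 15000 UMIs, *Tlr2* had 1.13 in neutrophils and 0.26 in macrophages, and *Tlr4* had 0.85 and 0.58, so the contrast was smaller for *Tlr4*. LysM-Cre acts in both cell types. A test of the difference between them would need replicate libraries and was not made.

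Dendritic cells also had ratios above 0 for 10 of 10 members, compared with 50.6% of genes. None reached 1.5-fold, compared with 6.84% of genes higher and 8.23% lower and a median of 0.01 for all genes. In the depth range of 5000 to 15000 UMIs 4 of 10 were at least 1.5-fold higher (13% of genes) and after thinning 3 of 9 (19.4% of genes). With summed UMIs 8 of 10 were above 0 (52.5% of genes). The values ranged from 0.02 for *Tnfrsf1b* to 0.55 for *Tlr4*, and *Nfkb1* with 0.50 (0.39 to 0.61), *Tnfaip3* with 0.38 (0.18 to 0.59) and *Nfkbia* with 0.25 (0.14 to 0.37) had intervals above 0. In mast cells 1 member was higher and 2 were lower (background 5.52% and 16.7%). *Nfkb1* was at 0.60 (0.53 to 0.68), *Tlr2* at -0.88 (-1.65 to -0.09) and *Cd14* at -0.61 (-1.02 to -0.19). The last 2 mRNAs had low levels in mast cells, with 117 and 513 UMIs over both libraries. *Nfkb1*, *Tlr2* and *Cd14* stayed at least 1.5-fold in 5, 7 and 3 of 8 alternatives. Summed marker levels in mast cells were 24.4 and 12.9 for epithelial cells and 9.01 and 6.71 for neutrophils. They were 2.26 and 1.88 for macrophages and 0.18 and 0.38 for B cells. The part of these markers in the ratios was not tested.

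T cells are not expected to express LysM-Cre, and members lay on both sides of 0 there. *Nfkb1* was 1.56-fold higher in the library labelled Mir34a_Mye_KO, with a log2 ratio of 0.64 (0.61 to 0.68), and *Tnfaip3* with 0.50 (0.46 to 0.54) and *Tnfrsf1b* with 0.42 (0.33 to 0.50) were also above 0. *Cd14* with -0.88 (-1.07 to -0.70) and *Tnf* with -0.64 (-0.79 to -0.49) were lower. Thus 1 of 10 members was higher and 2 were lower, compared with 2.9% and 14.2% of all genes. In T cells with 5000 to 15000 UMIs 3 members were higher (*Nfkb1* with 0.67, *Tnfaip3* with 0.86 and *Tnfrsf1b* with 0.66) and 1 was lower (*Tnf*), compared with 7.03% and 19.6% of genes. *Cd14* is not expected in T cells. Its level there was 0.75 and 0.40, and the summed level of 5 neutrophil markers in T cells was 9.48 and 5.21. The summed level of 5 epithelial markers in T cells was 26.0 and 14.6, and epithelial cells held the largest part of the *Tnf* UMIs. The part of these markers in the *Cd14* and *Tnf* ratios was not tested.

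In B cells 2 members were lower (background 29.4%) and none was higher (background 5.5%). *Tnf* had -1.24 (-1.58 to -0.91), with levels of 0.56 and 0.23, and *Tlr2* had -0.71 (-1.36 to -0.07). B cells of the library labelled Mir34a_Mye_KO were 5.69-fold deeper, and the median ratio of all genes was -0.34 there. The summed level of 5 epithelial markers in B cells was 22.9 and 10.2, and its part in the *Tnf* ratio was not tested. In B cells with 5000 to 15000 UMIs, 2 members were higher (*Nfkb1* with 1.26 and *Tnfrsf1b* with 0.74), 2 were lower and 6 of 10 were above 0, compared with 29.7%, 18.3% and 58.4% of genes in this range. In epithelial cells, none of the 10 members reached 1.5-fold (background 3.69% higher and 13.1% lower). *Tnf* was at -0.31 (-0.36 to -0.25), *Tnfrsf1a* at -0.24 (-0.37 to -0.11) and *Myd88* at -0.24 (-0.41 to -0.06), next to a median of -0.23 for all genes, and *Nfkb1* was at 0.16 (0.11 to 0.20). The median mitochondrial share of epithelial cells was 11.2% and 18.3%, and the signs of the ratios depended on the filter and on the totals. Above 0 were 4 of 10 members (19.7% of genes), but 8 of 10 when cells below 500 mRNAs or with 10% or more mitochondrial UMIs were left out (39.1% of genes), with *Tnfrsf1a* at 0.06 and *Myd88* at 0.02. With immunoglobulin, mitochondrial and ribosomal RNA-like genes left out of the totals, 9 of 10 were above 0 (54% of genes).

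In the cell types with few cells the intervals were wide. Endothelial cells had 1 member higher (*Tnfrsf1b*, 0.72, -0.25 to 1.73) and 3 lower, with *Tlr4* at -1.66 (-2.74 to -0.62) on 60 UMIs (background 8.01% and 17.8%). Fibroblasts had 1 higher (*Tnfrsf1a*, 0.73, -0.26 to 1.77) and 3 lower, among them *Cd14* at -0.97 (-1.99 to -0.01) and *Tnfaip3* at -0.81 (-1.38 to -0.21) (background 13.9% and 17.1%). In fibroblasts with 5000 to 15000 UMIs *Tnfrsf1a* was at -0.05 and *Tnfaip3* at 0.13. *Tlr4*, also lower at -0.62 on 50 UMIs, was at 0.85 after thinning, which leaves fewer UMIs, whereas *Cd14* stayed below 0 in all alternatives. The summed level of 5 neutrophil markers was 31.9 and 4.75 in fibroblasts and 7.18 and 32.9 in endothelial cells, and its part in the ratios was not tested. In basophils *Tlr2*, *Tnf* and *Cd14* were higher, with 2.83 (1.27 to 4.95), 1.02 (0.18 to 1.93) and 0.66 (0.34 to 0.99), and none was lower (background 16.3% and 13.8%). *Cd14* was at -0.32 in the cells with highest basophil markers. It was at least 1.5-fold higher in 3 of 8 alternatives, compared with 7 of 8 for *Tnf*. In erythroid cells only *Nfkb1* and *Nfkbia* had enough UMIs, with 1.16 (0.26 to 2.05) and 0.02, so 1 was higher and none lower (background 12.6% and 15.7%).

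The ratio of *Nfkb1* was above 0 in 9 of 11 cell types (34.6% of all pairs of gene and cell type), and in neutrophils, mast cells, T cells and erythroid cells it was at least 1.5-fold. B cells and endothelial cells, both at -0.05, were the exceptions, but *Nfkb1* was at 1.26 in B cells with 5000 to 15000 UMIs and at 0.64 in endothelial cells with summed UMIs. In fibroblasts it was 0.52, and -0.53 in the range of 5000 to 15000 UMIs. In epithelial cells it was 0.16, and it was above 0 in 5 of 8 alternatives, with a lowest value of -0.13. In mast cells it reached 1.5-fold in 5 of 8 alternatives, with a lowest value of 0.46. At 107 kb on chr3 (chr3:135584655-135691547), *Nfkb1* is the longest gene of the group, followed by *Tlr4* with 103 kb. Over all genes, the ratio of the libraries moved with gene length: in neutrophils the median was -0.32 for genes under 10 kb, -0.21 from 10 to 30 kb, -0.08 from 30 to 100 kb and 0.03 for genes over 100 kb. In T cells these medians were -0.31, -0.17, -0.01 and 0.11, and in macrophages -0.17, -0.11, -0.03 and 0.06. *Nfkb1* exceeded the median of genes over 100 kb in these 3 cell types, as did *Tlr4* in neutrophils. In T cells, *Cd14* (1.73 kb) and *Tnf* (2.63 kb) were the shortest members and had the lowest ratios. Other members went against this order: in T cells *Nfkbia* (3.24 kb) was at 0.08 and *Tlr4* at -0.23, and in neutrophils *Tlr2* (5.50 kb) was at 0.88. *Malat1*, a long RNA of the nucleus, was lower in the library labelled Mir34a_Mye_KO in 11 of 11 cell types. It was at -0.21 in neutrophils, where the median of all genes was -0.16. *Neat1*, a further RNA of the nucleus, was at -0.04 in neutrophils and above 0 only in basophils (0.26). The part of gene length in the ratios of the members was not tested.

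**Figure D3:**
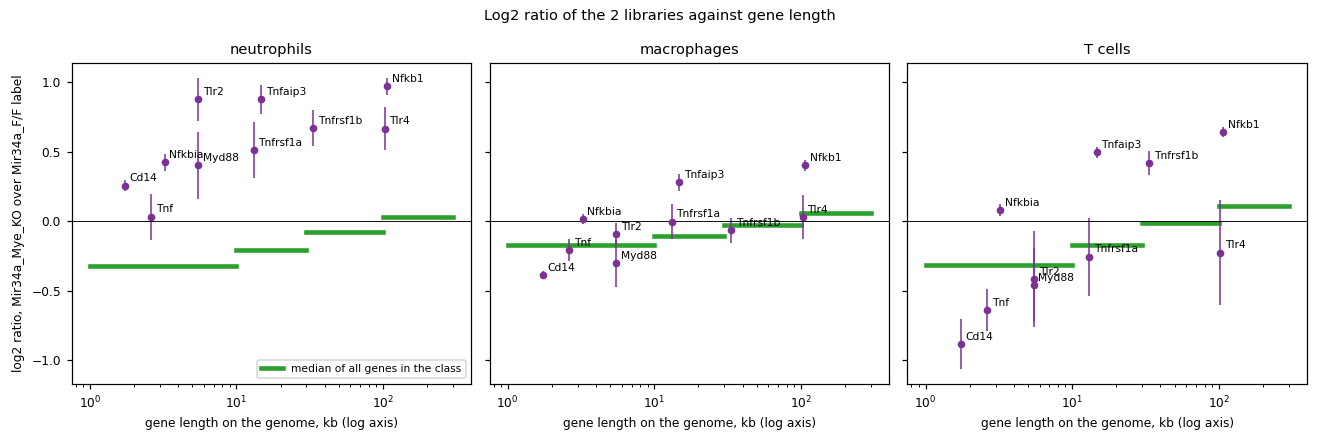
Log2 ratio of the 2 libraries (Mir34a_Mye_KO over Mir34a_F/F label) against the length of the gene on the genome (kb, log axis) in neutrophils, macrophages and T cells. Purple points are the members with 95% counting intervals, and green bars are medians of all genes in 4 length classes, which go from -0.31 to 0.11 in T cells.

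Macrophages were then divided by detected UMIs of *Mrc1* (the mannose receptor, a marker of M2-like macrophages), *Arg1* and *Ly6c2* (a marker of monocytes), with groups that exclude each other. *Cd14* was higher in *Ly6c2* cells, at 19.7 and 19.7, and in *Arg1* cells without *Mrc1*, at 16.5 and 13.5, than in *Mrc1* cells, at 8.46 and 8.54. *Tlr2*, at 2.68 and 3.34, and *Nfkbia*, at 13.9 and 16.1, were also highest in *Ly6c2* cells. *Tnf*, in contrast, was highest in *Arg1* cells without *Mrc1*, with 2.97 (2.77 to 3.17) and 3.24 (3.04 to 3.45), and the other 3 groups ranged from 1.22 to 1.84. Cells with none of the 3 markers had a *Cd14* level of 8.34 (7.95 to 8.73) and 4.22, so the lower *Cd14* in macrophages of the library labelled Mir34a_Mye_KO was seen in this group and in *Arg1* cells, and not in *Mrc1* or *Ly6c2* cells. These marker-free cells were shallow (medians of 3288 and 3203 UMIs), whereas *Mrc1* cells had 10915 and 18462. After thinning to 1000 UMIs before the division, *Cd14* was 16.4 (15.2 to 17.7) and 13.7 (12.3 to 15.3) in *Arg1* cells, with overlapping intervals. It was 7.07 and 7.43 in *Mrc1* cells, and 10.5 (9.92 to 11.0) and 7.76 (7.35 to 8.19) in cells with none of the markers. Thinned groups are not the same cells, since cells lost marker UMIs. The group with none of the markers grew from 548 and 767 cells to 1359 and 1717 cells. *Tnf* then had its highest values in *Arg1* cells with 2.84 (2.35 to 3.41) and 2.76 (2.14 to 3.51), but these intervals overlapped those of *Ly6c2* cells, which had 2.02 (1.39 to 2.84) and 1.91 (1.28 to 2.74). In the library labelled Mir34a_F/F the interval of *Arg1* cells also overlapped that of *Mrc1* cells, which had 1.86 (1.38 to 2.46).

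**Figure D4:**
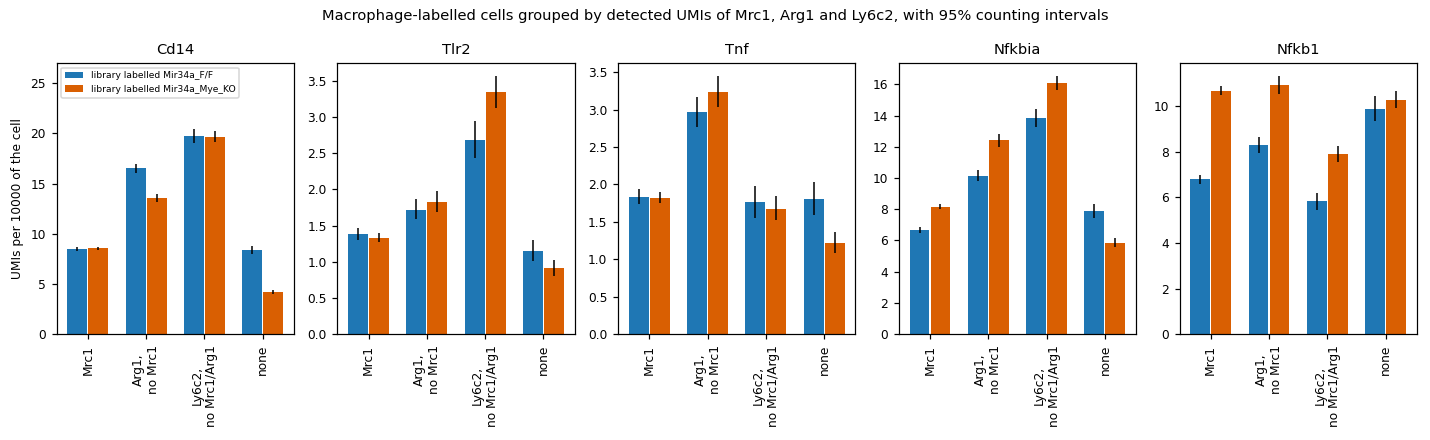
Level (UMIs per 10000 UMIs of the cell) of 5 members in macrophages with a *Mrc1* UMI, with *Arg1* but no *Mrc1*, with *Ly6c2* but neither, and with none (bars, 1 per library; lines, 95% counting intervals). *Cd14*, *Tlr2* and *Nfkbia* are highest in *Ly6c2* cells, *Tnf* in *Arg1* cells, at 2.97 and 3.24.

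*Nfkb1* did not follow this order. It was lowest in *Ly6c2* cells, at 5.83 and 7.90, and its values were 6.80 and 10.7 in *Mrc1* cells and 8.30 and 10.9 in *Arg1* cells. In these 3 groups the intervals of the libraries did not overlap. In cells with none of the markers the values were 9.90 (9.37 to 10.5) and 10.3 (9.91 to 10.7), with overlapping intervals. After thinning this differed: *Nfkb1* was 8.21 (7.35 to 9.14) and 9.29 (8.11 to 10.6) in *Arg1* cells and 5.28 (4.22 to 6.52) and 7.70 (6.37 to 9.23) in *Ly6c2* cells, with overlapping intervals, whereas cells with none of the markers had 8.53 (8.04 to 9.03) and 9.92 (9.45 to 10.4). The *Mrc1* cells had 6.35 (5.42 to 7.39) and 11.7 (10.8 to 12.7).

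Within a cell type, cells with a *Tnf* UMI were compared with cells without. Cells with a *Tnf* UMI were deeper, with medians of 9187 and 5348 UMIs in macrophages of the library labelled Mir34a_F/F and of 16781 and 3941 in the library labelled Mir34a_Mye_KO. In macrophages, *Nfkbia* was 1.33-fold and 1.91-fold higher in cells with *Tnf*, and *Tnfaip3* 1.28-fold and 1.73-fold. Of the 9 other members, 0 in the first and 4 in the second library (*Tlr2*, *Cd14*, *Nfkbia* and *Tnfaip3*) were at least 1.5-fold higher, compared with 2.97% and 7.84% of genes. In neutrophils none was, compared with 10.8% and 6.02% of genes, nor in T cells, compared with 3.39% and 3.28%. In dendritic cells 1 of 7 members with at least 50 UMIs (*Myd88*) and 2 of 9 (*Cd14* and *Nfkbia*) were, compared with 9.64% and 6.65%.

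To bring the depths closer, the same was done in cells with 5000 to 15000 UMIs, in which macrophages with and without *Tnf* had medians of 8987 and 7655, and of 10976 and 9318 UMIs. *Nfkbia* was then 10.6 with and 8.51 without a *Tnf* UMI in the library labelled Mir34a_F/F, a fold of 1.248. In the library labelled Mir34a_Mye_KO it was 14.9 and 8.59, and 1 of the 9 members, *Nfkbia*, was at least 1.5-fold higher (0 in the other library, background 3.09% and 3.5%). *Tnfaip3* was 1.32-fold and 1.49-fold higher in these macrophages.

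In the same range of depth, *Nfkbia* was higher in cells with a *Tnf* UMI also in neutrophils (1.23-fold and 1.42-fold) and dendritic cells (1.23-fold and 1.74-fold). The median log2 ratio of all genes in these cells was 0.16 and 0.02 in neutrophils, next to 0.30 and 0.50 for *Nfkbia*, and 0.01 and -0.09 in dendritic cells, next to 0.30 and 0.80. At least 1.5-fold higher were 13.8% and 6.17% of genes in neutrophils and 9.92% and 6.45% in dendritic cells. In dendritic cells of the library labelled Mir34a_Mye_KO, *Tnfaip3* (1.62-fold, log2 interval 0.36 to 1.03) and *Tlr2* (1.81-fold, 0.05 to 1.66) were also at least 1.5-fold higher. In T cells the fold of *Nfkbia* was 1.01 and 1.13. *Nfkb1* had a fold of 1.16 and 1.03 in macrophages and 0.96 and 0.87 in neutrophils. *Cd14* was 0.95-fold and 1.47-fold in macrophages with *Tnf*, and 0.76-fold and 0.91-fold in neutrophils with *Tnf*. Over all neutrophils its fold was 0.86 and 1.03, so the lower *Cd14* of neutrophils with *Tnf* was seen in both libraries in the limited range of depth and in 1 library otherwise.

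**Figure D5:**
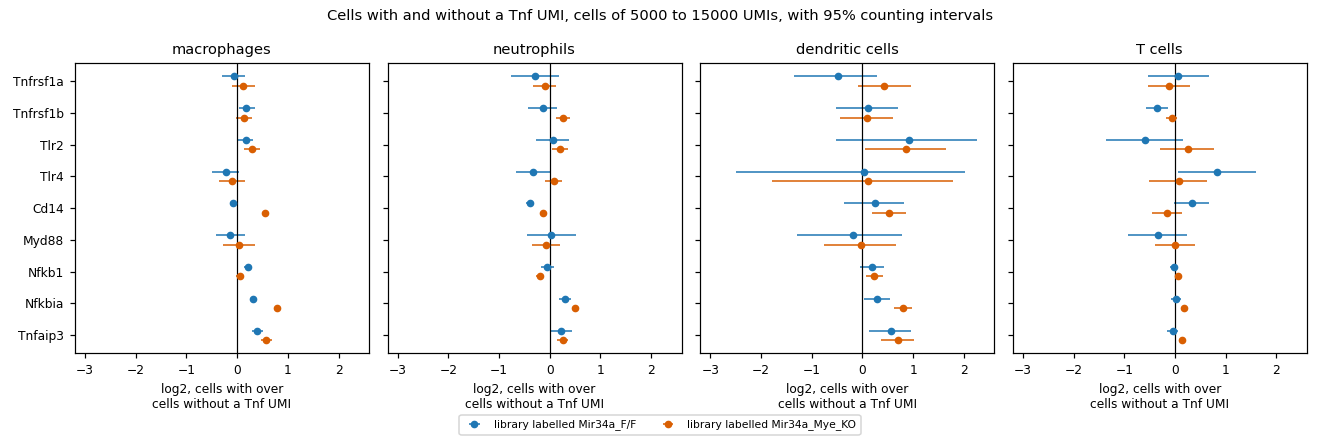
Log2 ratio of the level in cells with over cells without a *Tnf* UMI for the 9 other members, in cells of 5000 to 15000 UMIs of 4 cell types, with 1 point per library and 95% counting intervals. *Nfkbia* and *Tnfaip3* lie above 0 in macrophages, neutrophils and dendritic cells of both libraries, whereas *Cd14* lies below 0 in neutrophils (-0.39 and -0.13).

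A list of 60 other genes of the pathway (ligands, receptors, adaptors, kinases, NF-kB subunits, inhibitors and targets) was also chosen with earlier results known. Of these genes, 53 were compared in neutrophils. Of these, 12 were at least 1.5-fold higher and 2 at least 1.5-fold lower in the library labelled Mir34a_Mye_KO, with a median of 0.16 (all genes -0.16, with 5.86% higher and 16.4% lower). The largest ratios among genes with a level of at least 0.5 were those of *Nfkbiz*, with levels of 7.36 and 13.3 and a ratio of 0.85 (0.79 to 0.91), and of the NF-kB target *Il1b*, with levels of 24.8 and 44.5 and a ratio of 0.84 (0.81 to 0.88). The lowest were *Tnip3* with -0.21 and the kinase *Map3k8* with -0.20, both with intervals that held 0. *Map3k8* reached a level of 0.5 in the library labelled Mir34a_F/F only. In macrophages, 1 of 59 genes was higher, *Tlr1* with low levels of 0.14 and 0.22 and a ratio of 0.61 (0.36 to 0.87), and 3 were lower (all genes 3.93% and 9.46%). *Il6* was at -0.74 (-0.88 to -0.59) and *Sod2*, the mitochondrial superoxide dismutase, at -0.61 (-0.67 to -0.55), whereas *Birc3* (0.28) and *Cyld* (0.27) had the largest ratios among genes with a level of at least 0.5. *Il6*, with levels of 0.67 and 0.40, also reached 0.5 in the library labelled Mir34a_F/F only. In T cells 5 of 55 genes were higher and 4 lower (all genes 2.9% and 14.2%). In epithelial cells 5 of 59 were higher and 3 lower (3.69% and 13.1%), and in B cells 0 of 51 and 9 (5.5% and 29.4%).

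For each member, the genes with the most similar levels were sought over the 22 values of 11 cell types in 2 libraries, on the scale of log2 of the level plus 0.1, among 7050 genes. Values of a library share their depth and those of a cell type share their identity, so the coefficients describe likeness only. *Cd14* was most like the neutrophil-attracting chemokine *Cxcl2* (r = 0.96) and the lectin receptor *Clec4e* (r = 0.96). *Tlr2* was most like *Il1a* (r = 0.89) and the interleukin-1 receptor antagonist *Il1rn* (r = 0.89), *Tlr4* like *Fbxl5* (r = 0.89) and *Myd88* like *Tgm2* (r = 0.89). *Nfkb1* was most like *Cmip* (r = 0.95) and the T cell adaptor *Fyb* (r = 0.92), and *Fyb* also led for *Tnfaip3* (r = 0.90). *Nfkbia* was most like *Orai2* (r = 0.93), *Tnfrsf1a* like *Marcks* (r = 0.91) and *Tnfrsf1b* like *Mxi1* (r = 0.91). *Tnf* had the weakest partner, *Gm31718* (r = 0.83).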

How the data were processed

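The authors deposited natural log values, namely ln(1 + x), where x is the number of UMIs scaled to a total of 10000 in each cell. They had used Cell Ranger 7.2.0 and the mm10 genome for counting. As the authors describe, cells with over 200 expressed mRNAs and under 25% mitochondrial RNA were kept, doublets were removed with Scrublet and values were made with LogNormalize of Seurat. The deposited cell type and library of each cell were used as given. Although the stated limit was 25%, 2470 and 4130 deposited cells were at or over it when mitochondrial shares were computed from the recovered UMIs.

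The log was undone and values were divided by the smallest of each cell, which gave whole UMI counts within 1.5e-10 for 38883 cells, with totals of 147109016 and 193133086 UMIs. Levels are means over cells of UMIs per 10000. Intervals of levels (Poisson) and ratios (conditional binomial) were exact at the effective number of UMIs, that is, allowing for the unequal weight of UMIs from cells of different depth. They were tried on simulated Poisson counts in which a gene had the same level in all cells of a library. Their behavior for mRNAs that are uneven over cells was not tested. Intervals of shares were exact binomial (Clopper-Pearson). With 1 library per genotype no test was made, and a pair was counted as higher or lower at 1.5-fold with at least 50 UMIs. This minimum was taken over all cells and was not applied again in alternatives that thinned UMIs or left out cells. The 10 genes, the list of 60 pathway genes and the markers were chosen with earlier results of these data known. Other pathway genes were named by the 2 largest ratios in each direction in macrophages and neutrophils among genes with a level of at least 0.5, and like genes by the 2 highest r. Positions and 3′ UTRs were taken from GENCODE vM21 (GRCm38, the same build as mm10), using the longest 3′ UTR of a gene. Python 3.11.15 with numpy 2.4.6, scipy 1.17.1, pandas 2.3.3 and matplotlib 3.10.9 was used. Alternatives were thinning to 1000 UMIs, cells with at least 500 mRNAs and under 10% mitochondrial UMIs, cells with highest own markers, totals that left out 409 genes (immunoglobulin, mitochondrial, ribosomal RNA-like), summed UMIs, ratios relative to the median of all genes and a minimum of 20 UMIs. Totals without *S100a8* and *S100a9* and, for the comparison of the libraries, cells with 5000 to 15000 UMIs were added after seeing the data.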

Additional observations from a re-analysis of the deposited data

Results flagged for a closer look

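Some members were at least 1.5-fold higher in 1 cell type and at least 1.5-fold lower in another, each with a counting interval that excluded 0. The differences between cell types were not tested, since each rests on the same 2 libraries. *Tnf* had a log2 ratio of 1.02 in basophils, -0.64 in T cells and -1.24 in B cells. *Tlr2* had 0.88 in neutrophils and 2.83 in basophils, but -0.88 in mast cells and -0.71 in B cells. *Tlr4* had 0.67 in neutrophils and -1.66 in endothelial cells. *Cd14* had 0.66 in basophils, and -0.61 in mast cells, -0.88 in T cells, -0.97 in fibroblasts and -0.61 in endothelial cells. *Tnfaip3* had 0.88 in neutrophils and -0.81 in fibroblasts. Of 8 alternatives, the *Cd14* values stayed at least 1.5-fold in the same direction in 7 in T cells, 7 in fibroblasts, 3 in basophils, 3 in mast cells and 2 in endothelial cells. Those of *Tnf* did so in 7 in basophils, 6 in T cells and 8 in B cells. For *Tlr2* it was 8 in neutrophils, 7 in mast cells, 5 in B cells and 7 of 7 in basophils. In basophils thinning gave no *Tlr2* ratio, and the others rested on few UMIs. There were 57 over both libraries, and 2 and 3 in the cells with highest basophil markers. For *Tlr4* it was 7 in neutrophils and 7 in endothelial cells, and for *Tnfaip3* 8 in neutrophils and 6 in fibroblasts.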

How the results depend on the processing

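The 13 higher pairs became 20 of 92 after thinning (11.7% of all pairs tested) and 27 of 94 in cells with 5000 to 15000 UMIs (11.9%). The 12 lower pairs became 7 when immunoglobulin, mitochondrial and ribosomal RNA-like genes were left out of the totals (9.47% of all pairs tested). Relative to the median of all genes they became 6 (9.39%). Under the other alternatives, both counts stayed within 1.5-fold. The count of 6 members that peak in neutrophils, macrophages or dendritic cells was 7 in cells with 5000 to 15000 UMIs and 6 in the other alternatives that could give it; the ratio relative to the median gives no order of levels. Of the 25 pairs at least 1.5-fold higher or lower, 5 had the opposite sign in at least 1 alternative, and of the 69 within 1.5-fold, 39 did, among them *Tnfaip3* in basophils (-0.45, up to 0.62), *Tnfrsf1b* in B cells (-0.56, up to 0.74) and *Tnfrsf1a* in endothelial cells (0.39, down to -0.61). The 5 were *Tlr4* in fibroblasts after thinning (0.85, with 50 UMIs over both libraries before it), *Cd14* in basophils with highest own markers (-0.32), *Cd14* in endothelial cells with summed UMIs (0.25), and, in cells with 5000 to 15000 UMIs, *Tnfrsf1a* (-0.0496) and *Tnfaip3* (0.13) in fibroblasts. Between cells with and without *Tnf*, *Myd88* reversed in dendritic cells of the library labelled Mir34a_F/F (-0.19) in that range. The causes were not tested. In neutrophils, 4 to 7 of 10 members were at least 1.5-fold higher and none was lower in 8 alternatives. The share of all genes in these alternatives ran from 4.18% to 12.2% higher and from 9.17% to 32.3% lower. No paired analysis was possible because each genotype had 1 library and no test was made. Leaving out a replicate was not possible for the same reason. Enough UMIs for a comparison were found in 7 of 11 cell types for *Myd88* and in 8 for *Tlr2*.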
